A study of Homo sapiens with 18 samples.

Results

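The comparison described here sets BE2C cells carrying the shRNA shAhR-1 against BE2C cells carrying the shRNA shAhR-2, over all genes, to show what differs between 2 hairpins labelled as aimed at the same gene. BE2C is an established human neuroblastoma cell line. The comparison uses 6 of the 18 libraries of the study: 3 of shAhR-1 and 3 of shAhR-2, with 3 BE2C libraries of the pLKO-GFP vector control fitted beside them to share the estimate of spread. The members were chosen by cell line and hairpin label alone, so no measured value entered the choice. The labels give both hairpin groups as AhR knockdown lines and the vector group as control, with no hairpin sequence, no time after transduction, and no statement that replicates were separate cultures or transductions. The p-values therefore measure only how these libraries vary, and that variation may be technical. The same 3 groups of 3 libraries exist for Kelly, a second human neuroblastoma line. RNA-seq libraries were made from total RNA after removal of ribosomal RNA, and the values are raw read counts per gene. Levels are given as CPM, the counts scaled to a common library size, which are not divided by gene length, so they compare libraries and not genes. Fold changes are shAhR-1 minus shAhR-2 on the log2 scale.

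The aryl hydrocarbon receptor (AhR, gene AHR) is a transcription factor switched on by small-molecule ligands. In the absence of ligand it is held in the cytoplasm by a chaperone complex that includes HSP90 and PTGES3 (p23). On ligand binding it enters the nucleus, pairs with ARNT and drives genes such as CYP1A1, CYP1B1, AHRR and TIPARP. A short hairpin RNA is processed into a small RNA that guides cleavage of matching transcripts, and it can also lower transcripts that match its seed, so hairpins to one gene can differ in their other effects. BE2C carries amplified MYCN, and lines of its kind express the adrenergic regulators HAND2 and GATA3.

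The BE2C libraries held 39057512 to 44712058 counts each. In the shAhR-1 libraries 14970, 14663 and 14826 genes had at least 10 counts, against 15744, 15765 and 15832 in the shAhR-2 libraries and 14590, 14614 and 14544 in the pLKO-GFP libraries. Both hairpin groups thus lay above the control in the number of genes detected, and every shAhR-2 library lay above every shAhR-1 library. Mitochondrially encoded genes took 24.3%, 24.9% and 24.3% of the counts in shAhR-1, 25.1%, 20.5% and 20.5% in shAhR-2 and 18.8%, 19.1% and 19.4% in pLKO-GFP. The first shAhR-2 library stood apart in this share. Its counts differed from the other 2 libraries of its group with a chi-square per degree of freedom of 24.8 and 27.2 over genes with at least 100 counts in the pair, and of 4.88 and 6.42 once mitochondrial genes were left out, where other replicate pairs of the line gave 3.10 to 5.72 with all genes. The mean mitochondrial share was 24.5% ± 0.367 in shAhR-1 and 22.03% ± 2.64 in shAhR-2 (SD, n = 3 each), which did not pass an exact two-sided permutation test (p = 0.4, where 0.1 is the smallest p that 3 against 3 allows). Without the first shAhR-2 library the shAhR-2 share was 20.5% (n = 2), and the difference between the hairpins was 3.97 percentage points in place of 2.45.

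**Figure D1:**
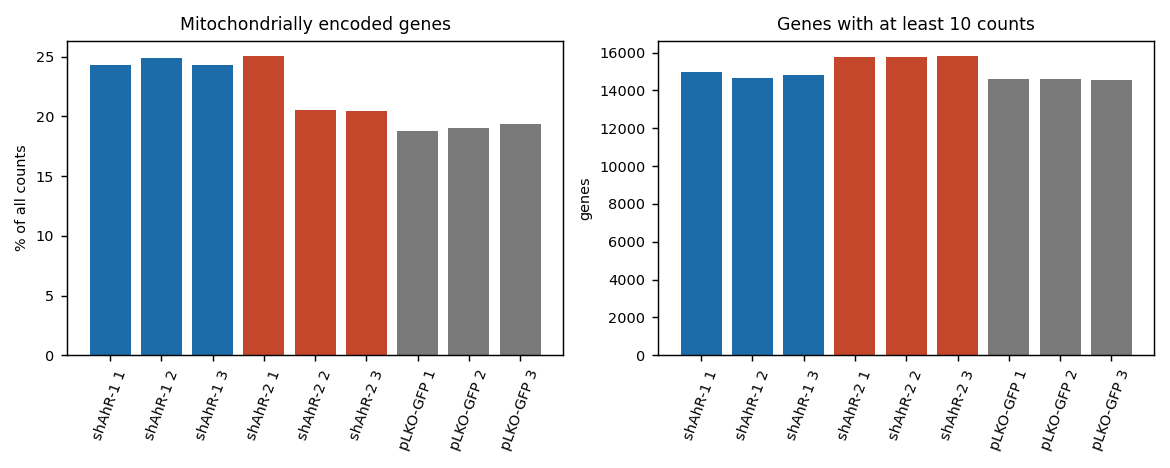
Share of counts from mitochondrially encoded genes (left, percent) and number of genes with at least 10 counts (right) in each BE2C library, as 1 bar per library, with shAhR-1, shAhR-2 and pLKO-GFP from left to right. The first shAhR-2 library sits at 25.1%, near the shAhR-1 libraries, while the other 2 shAhR-2 libraries sit at 20.5%; all 3 shAhR-2 libraries have more genes detected than the other 6.

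AHR itself was near the detection limit in every BE2C library, so a difference between the hairpins was hardly detectable at this depth. It had 8, 0 and 0 counts in shAhR-1, 0, 0 and 0 counts in shAhR-2 and 4, 4 and 6 counts in pLKO-GFP. AHR fell below the filter on low counts and was not tested across genes. The 8 counts of shAhR-1 all came from 1 library, and the hairpin groups overlapped at 0. Pooled over the libraries, AHR in shAhR-1 was at least 2.97-fold higher than a floor of 3 counts over the shAhR-2 group, with a lower exact 95% limit of the rate ratio of 1.90 that covers counting error only. A permutation test over the libraries could not decide. With counts in only 1 hairpin library, every split of the libraries gives the same absolute difference. Small counts were more often even than odd (68.3% to 72.5% of the counts between 1 and 20 in a library), and with halved counts that lower limit was 0.734. Whether the mates of a read pair were counted separately is not given in the sources used here and was not tested. If they were, a count printed here stands for fewer fragments than its number.

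Of 20 genes listed for the AhR complex and its targets, 13 were tested: 7 were higher in shAhR-1 and 2 lower, with a median log2 fold change of 0.17. Across all genes tested 72.4% were called, so a share of called members of this size is close to the background. ARNT, the dimer partner of AHR, had 50.1, 51.3 and 52.2 CPM in shAhR-1 and 52.7, 54.0 and 55.0 CPM in shAhR-2, and was not called (log2 -0.074 ± 0.046 SE, adjusted p = 0.153). CYP1A1, the classical AhR-induced cytochrome P450, had 0.591, 0.523 and 0.631 CPM in shAhR-1 and 0.342, 0.174 and 0.295 CPM in shAhR-2, against 0.680, 0.476 and 0.493 CPM in pLKO-GFP, and passed the test at an adjusted p of 0.034. These CYP1A1 levels were low, and its call was not followed through leaving out each library. The list had 5 or 6 members higher in shAhR-1 when single hairpin libraries were left out. AHRR, the AhR repressor, CYP1B1 and the antioxidant enzyme NQO1 were not called. The chaperones HSP90AB1 (log2 0.39) and PTGES3 (log2 0.39) were higher in shAhR-1, and TIPARP (log2 -0.32) was lower. The TIPARP call was lost without the third shAhR-1 library (adjusted p = 0.134) and without the third shAhR-2 library (adjusted p = 0.063). The amino acid transporter SLC7A5, counted here among reported AhR targets, had 282, 290.3 and 274 CPM in shAhR-1 against 85.0, 71.7 and 76.0 CPM in shAhR-2 (log2 1.86 ± 0.042).

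Most genes detected in BE2C differed between the hairpins, and the largest differences were genes with more RNA in shAhR-2. Of 15732 genes tested with edgeR's quasi-likelihood test, 11396 (72.4%) had a Benjamini-Hochberg adjusted p below 0.05 and are called here, 5653 (35.9%) of them higher in shAhR-1 and 5743 (36.5%) lower. For 75.3% of the genes tested, the 3 shAhR-1 libraries and the 3 shAhR-2 libraries did not overlap. Called genes that differed by more than 2-fold numbered 1302 higher and 2577 lower in shAhR-1, and those past 8-fold numbered 35 higher and 499 lower. Differences past 2-fold thus mostly had the higher level in shAhR-2. Long intergenic RNAs were lower in shAhR-1 for 218 of 526 tested (41.4%) and higher for 91 (17.3%), while protein-coding genes divided into 38.7% higher and 38.3% lower. On the first principal component of the BE2C libraries the shAhR-1 libraries lay at -39.9, -42.9 and -42.5, the shAhR-2 libraries at 93.1, 92.3 and 90.6 and the pLKO-GFP libraries at -50.8, -51.2 and -48.7, so shAhR-2 stood away from both other groups on it.

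**Figure D2:**
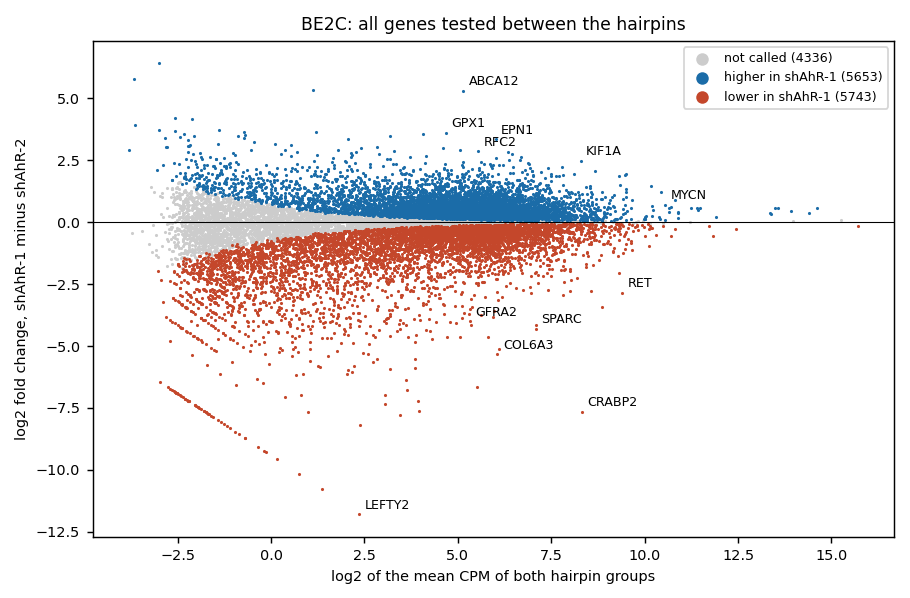
Each point is 1 of the 15732 genes tested, with the log2 of the mean CPM of both hairpin groups on the horizontal axis and the log2 fold change of shAhR-1 minus shAhR-2 on the vertical axis; blue genes were called higher in shAhR-1, red genes lower, grey genes not called. Below -2 the points outnumber those above 2, and the straight lower-left edge is made of genes with 0 counts in shAhR-1, whose fitted fold depends on the prior count.

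Among genes higher in shAhR-1, the largest difference at a mean of at least 5 CPM was that of ABCA12, a lipid transporter of the ATP-binding cassette family at chr2:214931542-215138428 in GRCh38. It had 63.7, 75.2 and 67.9 CPM in shAhR-1 against 1.67, 2.00 and 1.56 CPM in shAhR-2, with 20.8, 19.9 and 20.6 CPM in pLKO-GFP (log2 5.30 ± 0.090, adjusted p = 3.24e-31 in edgeR's quasi-likelihood test). Its control level lay between the 2 hairpins. The selenoprotein GPX1, which reduces hydrogen peroxide, had 47.1, 46.7 and 47.6 CPM in shAhR-1 against 4.45, 3.70 and 3.39 CPM in shAhR-2, and 51.5, 48.3 and 51.2 CPM in pLKO-GFP (log2 3.62 ± 0.076). The endocytic adaptor EPN1 had 120.0, 117 and 115 CPM in shAhR-1 and 12.1, 11.1 and 11.5 CPM in shAhR-2, against 109, 99.4 and 103 CPM in pLKO-GFP (log2 3.34 ± 0.051). For both of these genes the shAhR-1 libraries sat near the control libraries and the shAhR-2 libraries stood far below. The same order held for MLST8, a subunit of both mTOR complexes (log2 2.98 between the hairpins; -0.11 for shAhR-1 minus pLKO-GFP and -3.09 for shAhR-2 minus pLKO-GFP), for NFKBIB, an inhibitor of NF-kappaB (log2 3.03; 0.039 and -2.99 against pLKO-GFP for shAhR-1 and shAhR-2), and for the RNA-binding protein MEX3D (log2 2.90). C1QL1, DRGX and SLC6A9 were also among the 10 with the largest increase and, like ABCA12, were above the control in shAhR-1 and below it in shAhR-2.

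Among genes lower in shAhR-1, the largest difference at that level was that of LEFTY2, an extracellular antagonist of Nodal signalling at chr1:225936598-225941489. It had 0 counts in all 3 shAhR-1 libraries and 10.7, 10.9 and 9.31 CPM in shAhR-2, which makes it at least 423-fold lower in shAhR-1 when 3 counts over the group are taken as the floor. CRABP2, the cellular retinoic acid binding protein at chr1:156699606-156705816, was the most abundant of the top 10. It had 3.23, 3.66 and 2.62 CPM in shAhR-1 against 668, 625 and 625 CPM in shAhR-2, with 6.60, 6.02 and 5.90 CPM in pLKO-GFP (log2 -7.66 ± 0.058, adjusted p = 1.28e-40). Its 3 shAhR-2 libraries stood far above all other BE2C libraries. COL27A1, a fibrillar collagen, had 0.682, 0.785 and 1.24 CPM in shAhR-1, 96.9, 90.3 and 85.1 CPM in shAhR-2 and 0.874, 0.571 and 0.987 CPM in pLKO-GFP. The membrane-bound collagen COL13A1 (log2 -7.35), the BMP antagonist CHRD (log2 -6.96), the kinesin KIF21B (log2 -7.76), the neutral amino acid transporter SLC6A19 (log2 -8.20) and the synaptic protein ELFN1 (log2 -7.62) were likewise lower, with under 1 CPM in every shAhR-1 library. The antisense transcripts UNC5B-AS1 (log2 -7.21) and MIR1-1HG-AS1 (log2 -6.79) completed the 10, and reads from their partners on the other strand cannot be told apart from theirs without a stated strand setting. REST, a transcriptional repressor of neuronal genes that was chosen after its values were seen, averaged 0.968 ± 0.167 CPM in shAhR-1, 24.5 ± 1.03 CPM in shAhR-2 and 1.96 ± 0.137 CPM in pLKO-GFP (SD, n = 3 each), a log2 difference of -4.65 between the hairpins.

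**Figure D3:**
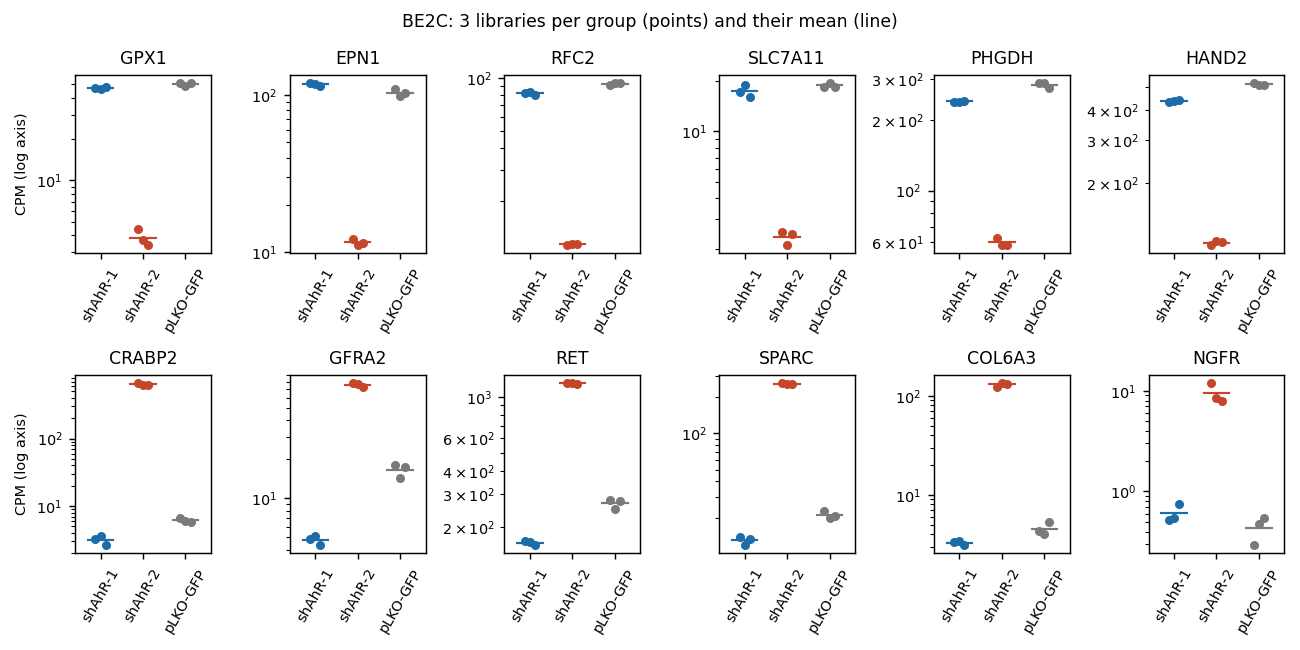
CPM (log axis) of 12 genes in each BE2C library, with points for the 3 libraries of a group, a line for their mean and the groups shAhR-1, shAhR-2 and pLKO-GFP from left to right in each panel. In the upper row shAhR-2 lies below both other groups, and in the lower row it lies above both.

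The genes of the S phase machinery were higher in shAhR-1. Of 40 genes for DNA replication and nucleotide supply, all tested, 37 were higher and 2 lower, with a median log2 fold change of 0.91. Over all genes tested the median was -0.0082, with 35.9% higher and 36.5% lower. RFC2, a subunit of the clamp loader, had 82.9, 83.0 and 80.3 CPM in shAhR-1 and 11.2, 11.3 and 11.3 CPM in shAhR-2, against 91.0, 93.6 and 94.4 CPM in pLKO-GFP (log2 2.86 ± 0.050). CHAF1A, the large subunit of the chromatin assembly factor, was higher in all 3 shAhR-1 libraries (log2 1.97 ± 0.041). RRM2, the regulated subunit of ribonucleotide reductase, had 310.1, 311 and 314 CPM in shAhR-1 and 95.1, 83.3 and 81.9 CPM in shAhR-2, against 510.0, 468 and 503 CPM in pLKO-GFP (log2 1.84). In RFC2 and RRM2 shAhR-2 was the lowest group and pLKO-GFP the highest. The exceptions among the 40 were POLA1 (log2 -0.21) and GINS1 (log2 -0.14), both lower in shAhR-1 by a small amount. Of 30 genes of mitosis and the spindle checkpoint, 25 were higher and 3 lower (median 0.41), among them the spindle assembly factor TPX2 (log2 1.21), the kinase AURKB (log2 1.102) and the transcription factor MYBL2 (log2 0.98). The checkpoint protein MAD2L1 went the other way, with 31.2, 30.8 and 31.8 CPM in shAhR-1 against 68.2, 65.6 and 68.4 CPM in shAhR-2. Of 24 tested genes for G1 cyclins, CDK inhibitors and E2F factors, 15 were higher and 7 lower: E2F1 (log2 1.31) and E2F8 (log2 1.37) were higher in shAhR-1, while the CDK inhibitors CDKN1A (log2 -1.50) and CDKN1B (log2 -0.35) and E2F3 (log2 -0.69) were lower.

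The promoters of 2 replication genes are shown because they carry an E2F type motif and stand for a list in which that motif was frequent. Each is the 300 bases from 250 before to 50 after the annotated gene start in RefSeq (GRCh38.p14), 5′ to 3′ on the gene's strand, with the motif in capitals. CDT1, which loads the replicative helicase, lies on the plus strand and its window is chr16:88803539-88803838. PCNA, the sliding clamp, lies on the minus strand and its window is chr20:5126573-5126872.
CDT1: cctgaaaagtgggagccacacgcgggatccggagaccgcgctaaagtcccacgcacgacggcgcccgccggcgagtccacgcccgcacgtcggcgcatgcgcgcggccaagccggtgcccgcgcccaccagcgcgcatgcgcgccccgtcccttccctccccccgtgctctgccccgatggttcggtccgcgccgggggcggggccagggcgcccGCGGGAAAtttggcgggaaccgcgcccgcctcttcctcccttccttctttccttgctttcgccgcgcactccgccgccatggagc
PCNA: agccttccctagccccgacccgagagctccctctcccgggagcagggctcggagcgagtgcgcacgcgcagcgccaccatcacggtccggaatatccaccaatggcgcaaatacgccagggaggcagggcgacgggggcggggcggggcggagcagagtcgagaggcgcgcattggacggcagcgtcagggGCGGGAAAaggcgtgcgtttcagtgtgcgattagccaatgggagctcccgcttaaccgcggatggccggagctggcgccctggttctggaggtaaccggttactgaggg
The motif searched was TTTCCCGC or TTTGGCGC on either strand. It occurred in 17 of 36 matched promoters of the replication list (47.2%), against 3.48% of the 11768 promoters matched among all genes tested. CDT1 had 52.9, 53.8 and 56.0 CPM in shAhR-1 and 16.7, 15.2 and 13.6 CPM in shAhR-2, against 81.5, 75.9 and 76.2 CPM in pLKO-GFP (log2 1.84). PCNA had 365, 376 and 362 CPM in shAhR-1 and 169, 156 and 163 CPM in shAhR-2, against 467, 472 and 464 CPM in pLKO-GFP (log2 1.18). The motif stood in 4.33% of matched promoters of genes called more than 2-fold higher in shAhR-1 and in 1.89% of those called more than 2-fold lower. GINS1 (log2 -0.14) and POLA1 (log2 -0.21), the 2 lower members of the list, hold the motif too. A match describes the letters of the window and shows no binding.

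Genes of the integrated stress response, which ATF4 drives when the translation factor eIF2 is phosphorylated, were also higher in shAhR-1. Of 34 listed genes 32 were tested, 27 were higher and 3 lower, with a median of 1.06 on the log2 scale. Over all genes tested 35.9% were higher and 36.5% lower. ATF4 itself had 366, 374 and 358 CPM in shAhR-1 and 157, 162 and 151 CPM in shAhR-2, against 293, 276 and 277 CPM in pLKO-GFP (log2 1.23 ± 0.033). PHGDH, the first enzyme of serine synthesis, had 241, 241 and 243 CPM in shAhR-1 and 62.8, 58.5 and 58.8 CPM in shAhR-2, against 289, 290.2 and 274 CPM in pLKO-GFP (log2 2.01). The cystine transporter SLC7A11 had 17.1, 18.8 and 16.1 CPM in shAhR-1 and 2.51, 2.11 and 2.46 CPM in shAhR-2, against 18.5, 19.5 and 18.5 CPM in pLKO-GFP (log2 2.87). ATF4 was above the control in shAhR-1 and below it in shAhR-2, whereas PHGDH and SLC7A11 in shAhR-1 lay at or just below the control. The exceptions included ATF3, an immediate stress response factor (log2 -1.08), and VEGFA (log2 -0.32).

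The promoters of 3 members are given because each holds an ATF4 type motif, TGATGNAA on either strand, in capitals. They are ASNS, which makes asparagine (minus strand, chr7:97872359-97872658), CHAC1, which degrades glutathione (plus strand, chr15:40953221-40953520), and AARS1, which charges the alanine tRNA (minus strand, chr16:70289457-70289756), from the same RefSeq table.
ASNS: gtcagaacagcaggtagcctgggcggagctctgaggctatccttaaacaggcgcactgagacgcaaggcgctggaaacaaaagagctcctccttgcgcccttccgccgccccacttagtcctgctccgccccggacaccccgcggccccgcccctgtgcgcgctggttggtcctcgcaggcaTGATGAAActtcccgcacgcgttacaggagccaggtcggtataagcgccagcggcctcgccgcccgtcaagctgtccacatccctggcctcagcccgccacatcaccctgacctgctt
CHAC1: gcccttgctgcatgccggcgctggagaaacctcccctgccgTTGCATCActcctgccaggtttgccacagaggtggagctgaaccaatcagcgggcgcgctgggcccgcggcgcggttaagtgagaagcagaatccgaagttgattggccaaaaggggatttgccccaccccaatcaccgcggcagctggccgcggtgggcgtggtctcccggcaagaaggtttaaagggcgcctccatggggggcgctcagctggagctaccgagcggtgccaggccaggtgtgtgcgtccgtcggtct
AARS1: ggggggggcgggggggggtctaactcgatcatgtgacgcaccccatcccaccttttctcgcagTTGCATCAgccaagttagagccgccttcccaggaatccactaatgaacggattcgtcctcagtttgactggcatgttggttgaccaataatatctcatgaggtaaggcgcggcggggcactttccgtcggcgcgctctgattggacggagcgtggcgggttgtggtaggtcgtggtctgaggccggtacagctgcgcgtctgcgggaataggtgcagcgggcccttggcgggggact
The motif occurred in 7 of 27 matched promoters of the stress list (25.9%), against 1.74% of all promoters matched, 2.52% of those of genes called more than 2-fold higher in shAhR-1 and 1.84% of those called more than 2-fold lower. CHAC1 had 7.63, 8.19 and 8.23 CPM in shAhR-1 and 1.94, 1.55 and 1.12 CPM in shAhR-2 (log2 2.39). ASNS had 5.50, 6.85 and 4.95 CPM in shAhR-1 and 1.46, 1.39 and 1.35 CPM in shAhR-2 (log2 2.04). AARS1 had 255, 260.5 and 249 CPM in shAhR-1 and 118, 107 and 100.4 CPM in shAhR-2 (log2 1.23). In all 3 the hairpin groups did not overlap, which held for 75.3% of all genes tested. ATF3 holds the motif too and was lower in shAhR-1. An AhR-ARNT type motif, TNGCGTG on either strand, stood in 7.18% of all matched promoters, in 5.34% of those more than 2-fold higher and in 6.21% of those more than 2-fold lower; it was searched after the values were seen. None of the motifs spelled out here contains another.

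The unfolded protein response of the endoplasmic reticulum was mixed, where 35.9% of all genes tested were higher in shAhR-1 and 36.5% lower. Of its 22 genes 12 were higher and 9 lower: the chaperone HYOU1 (log2 0.98) and SDF2L1 (log2 1.15) were higher in shAhR-1, and CREB3L2 (log2 -1.41) and the co-chaperone DNAJC3 (log2 -1.12) were lower. Of 32 MYC targets and ribosome assembly genes 30 were higher and 1 lower (median 0.54), with the nucleoside diphosphate kinase NME1 at log2 1.56 and RRP9, which takes part in processing ribosomal RNA, at log2 1.38. MYCN itself had 1843, 1847 and 1837 CPM in shAhR-1 and 1145, 1143 and 1120.0 CPM in shAhR-2, against 2229, 2170.2 and 2221 CPM in pLKO-GFP (log2 0.70 ± 0.024), so both hairpins were below the control and shAhR-2 the further. Of 38 cytosolic ribosomal proteins 11 were higher and 22 lower, mostly by small amounts (median -0.11), but RPS24 stood out with 972, 1019 and 987 CPM in shAhR-1 against 285, 265 and 275 CPM in shAhR-2 (log2 1.85). Counts of ribosomal protein, histone and other genes with near-identical copies are uncertain where reads could be shared.

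Cholesterol biosynthesis was higher in shAhR-1 in 15 of 23 tested genes and lower in 3, with STARD4 (log2 1.44), a sterol carrier, and LSS (log2 1.11), an enzyme of sterol synthesis, among the higher and HMGCS1 (log2 -0.20) among the lower. Of 29 tested genes of the hypoxia response and glycolysis 14 were higher and 11 lower, against 35.9% and 36.5% of all genes tested. The glycolytic enzymes LDHA (log2 1.62), PKM (log2 1.32) and HK2 (log2 1.21) were higher in shAhR-1, whereas the glucose transporter SLC2A3 had 0.772, 0.994 and 1.12 CPM in shAhR-1 against 17.7, 14.1 and 13.96 CPM in shAhR-2, and NDRG1 had 1.27, 1.18 and 1.46 CPM in shAhR-1 against 17.8, 15.8 and 16.9 CPM in shAhR-2. Of 13 mitochondrially encoded mRNAs 11 were higher and none lower (median 0.47), and without the first shAhR-2 library all 13 were higher (median 0.60). Of 21 tested replication-dependent histone genes 11 were higher and none lower, but most are low, and with a mean of at least 1 CPM required the count of higher members was 5.

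Regulators of the adrenergic neuroblastoma state differed one by one. Of 20 genes 11 were higher in shAhR-1 and 7 lower (median 0.16), against 35.9% and 36.5% of all genes tested. HAND2, a core factor of sympathetic neurons, had 434, 438 and 441 CPM in shAhR-1 and 111, 115 and 114 CPM in shAhR-2, against 520.3, 508 and 511 CPM in pLKO-GFP (log2 1.95). HAND1 went the opposite way, with 349, 355 and 348 CPM in shAhR-1 and 895, 894 and 897 CPM in shAhR-2, against 430.3, 433 and 415 CPM in pLKO-GFP (log2 -1.35). TFAP2B (log2 1.54) and INSM2 (log2 1.38) were higher in shAhR-1 and GATA2 (log2 -0.66) lower, while GATA3 (log2 0.14) was called at a small difference and ISL1 was not called (log2 -0.033, adjusted p = 0.456). GATA3 had at least 241 CPM in each hairpin library, so this regulator, known from adrenergic neuroblastoma, was expressed in all of them.

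Of 19 tested genes of catecholamine synthesis and storage 7 were higher and 9 lower, where 35.9% of all genes tested were higher and 36.5% lower. The noradrenaline transporter SLC6A2 had 257, 246 and 241 CPM in shAhR-1 and 67.1, 74.4 and 76.3 CPM in shAhR-2 (log2 1.77), and DBH, which makes noradrenaline, had 379, 385 and 388 CPM in shAhR-1 and 165, 179 and 184 CPM in shAhR-2 (log2 1.12). TH, the first enzyme of the pathway, was lower in shAhR-1 (log2 -0.53), as were GCH1, which makes its cofactor (log2 -1.39), and the granule protein SCG2 (log2 -0.85). Of 9 tested neuropeptide genes 1 was higher and 6 lower (median -1.32), with CARTPT at 0.909, 0.680 and 1.65 CPM in shAhR-1 against 12.8, 17.1 and 18.1 CPM in shAhR-2 and VIP at 22.6, 24.0 and 24.6 CPM in shAhR-1 against 72.3, 90.3 and 105 CPM in shAhR-2. Of 33 genes of the neuronal cytoskeleton and synapse 12 were higher and 15 lower. This list and the catecholamine list thus did not stand far from those shares of all genes, unlike the neuropeptide list. The axonal kinesin KIF1A had 534, 539 and 515 CPM in shAhR-1 against 88.9, 101 and 93.1 CPM in shAhR-2, and STMN2, a microtubule regulator of growing neurites, had 947, 961 and 948 CPM in shAhR-1 against 315, 332 and 358 CPM in shAhR-2. The intermediate filament PRPH (log2 -1.44), the migration protein DCX (log2 -1.26) and the adhesion molecule NCAM1 (log2 -1.20) were lower in shAhR-1.

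Receptors for neurotrophic factors had the lowest median of the 31 lists, -2.52 over 11 tested genes, of which 7 were lower and 3 higher. Over all genes tested 36.5% were lower and 35.9% higher. RET, the receptor tyrosine kinase through which GDNF family ligands signal, at chr10:43077027-43130351, had 167, 165 and 159 CPM in shAhR-1 and 1186, 1184 and 1175 CPM in shAhR-2, against 277, 249.5 and 275 CPM in pLKO-GFP (log2 -2.85 ± 0.034). GFRA2, a co-receptor for neurturin, had 4.82, 5.13 and 4.32 CPM in shAhR-1 and 78.0, 76.1 and 73.0 CPM in shAhR-2, against 18.1, 14.4 and 17.6 CPM in pLKO-GFP (log2 -3.99). For RET and GFRA2 shAhR-2 lay above the control and shAhR-1 below it. NGFR, the low-affinity neurotrophin receptor, had 0.522, 0.549 and 0.753 CPM in shAhR-1 and 11.98, 8.42 and 7.88 CPM in shAhR-2, where the first library was the highest, and its log2 difference was -3.95, or -3.74 without that library. ALK, a kinase often altered in neuroblastoma, was higher in shAhR-1 (log2 0.62).

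The lists of TGF-beta response, of integrins and laminins and of the mesenchymal state had more members lower than higher in shAhR-1, where 35.9% of all genes tested were higher and 36.5% lower. Of 27 tested TGF-beta response genes 21 were lower and 2 higher, with a median of -1.098 (-1.37 without the first shAhR-2 library). TGFB1, the ligand, had 3.52, 4.89 and 4.37 CPM in shAhR-1 and 33.3, 34.6 and 31.9 CPM in shAhR-2, against 5.66, 5.88 and 6.68 CPM in pLKO-GFP (log2 -2.97). LTBP2, a matrix protein of the latent TGF-beta binding family, had 3.998, 2.75 and 3.55 CPM in shAhR-1 and 57.4, 62.4 and 56.5 CPM in shAhR-2 (log2 -4.09), and BAMBI, a decoy receptor, had 27.5, 31.1 and 30.9 CPM in shAhR-1 and 228, 211 and 211 CPM in shAhR-2 (log2 -2.86). ID1 (log2 0.46) and ID3 (log2 0.34), inhibitors of basic helix-loop-helix factors, were the 2 higher members. Of 23 tested integrins and laminins 17 were lower and 3 higher (median -1.60): the collagen receptor subunit ITGA1 (log2 -2.75), ITGA11 (log2 -3.74) and ITGAV (log2 -2.18) were lower, and the laminin chains LAMA4, LAMB1 and LAMC1 higher, by log2 0.52, 0.80 and 0.97.

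Of 27 tested mesenchymal state and YAP target genes 17 were lower and 3 higher (median -0.85). SPARC, a collagen-binding matrix protein, had 14.02, 11.9 and 13.4 CPM in shAhR-1 and 261, 255 and 258 CPM in shAhR-2, against 22.9, 19.96 and 20.8 CPM in pLKO-GFP (log2 -4.30 ± 0.052). VIM (log2 -1.44) and SNAI1 (log2 -1.73), a filament and a repressor of epithelial genes, were lower as well. Of 13 tested smooth muscle contractile genes 8 were lower and 2 higher (median -0.79), with CNN1 at log2 -3.50, TPM2 at -3.06 and TPM1 at -1.94. A CArG box stood in 4 of 12 matched promoters of this list (33.3%), against 1.08% of all promoters matched, 1.41% of those of genes called more than 2-fold higher in shAhR-1 and 1.51% of those called more than 2-fold lower. Of the 4 genes, SRF was higher in shAhR-1 (log2 0.35) and the others had negative log2 values. CNN1, TPM2 and TPM1 were not among the 4. Of 17 tested Notch pathway genes 13 were lower and 3 higher (median -1.43), among them the target HES1 (log2 -2.03) and LFNG (log2 -1.83), while HES6 (log2 1.01) and the ligand DLL3 (log2 0.82) were higher. Of 15 tested retinoic acid pathway genes 11 were lower, led by CRABP2, and 2 higher. Of 33 tested axon guidance genes 12 were higher and 16 lower, with EFNB2 (log2 1.89) and ROBO1 (log2 1.47) above and NRP2 (log2 -2.17) and PLXNC1 (log2 -2.08) below, against 35.9% higher and 36.5% lower over all genes tested.

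Markers of fibroblasts, of Schwann cells and glia and of endothelium were also more often lower than higher in shAhR-1, and leukocyte markers were not. Over all genes tested 35.9% were higher and 36.5% lower, and the endothelial and leukocyte lists had few tested members. Of 13 tested fibroblast markers 11 were lower in shAhR-1 and 1 higher (median -1.27), and their summed level was 322 to 334 CPM in shAhR-1, 696 to 712 CPM in shAhR-2 and 310.5 to 326 CPM in pLKO-GFP. COL6A3 had 3.32, 3.37 and 3.08 CPM in shAhR-1 and 123, 135 and 132 CPM in shAhR-2, against 4.32, 4.02 and 5.25 CPM in pLKO-GFP, and COL1A1 had 1.61, 1.23 and 2.48 CPM in shAhR-1 against 28.3, 28.3 and 23.8 CPM in shAhR-2. The proteoglycan LUM was higher in shAhR-1, with 68.6, 67.0 and 68.6 CPM against 32.8, 36.9 and 39.1 CPM in shAhR-2, and DCN was not called. COL1A2 and FAP had 0 to 2 counts in every library. Of 10 tested Schwann cell and glial markers 6 were lower and none higher (median -1.46), with a summed level of 26.3 to 28.7 CPM in shAhR-1, 84.04 to 87.9 CPM in shAhR-2 and 22.4 to 26.2 CPM in pLKO-GFP. Most of that sum was PMP22 alone, with a mean of 23.8 CPM in shAhR-1, 61.6 CPM in shAhR-2 and 20.6 CPM in pLKO-GFP. SOX10, the defining factor of these cells, had 0.136, 0.105 and 0.437 CPM in shAhR-1 and 0.388, 0.196 and 0.295 CPM in shAhR-2 and was not called. PMP2 and CDH19 had 0 counts in every library. Of 5 tested endothelial markers 3 were lower and 1 higher (summed 1.78 to 2.53 CPM in shAhR-1, 10.97 to 13.8 CPM in shAhR-2 and 2.47 to 3.70 CPM in pLKO-GFP), and of 3 tested leukocyte markers 1 was higher (0.850 to 1.23 CPM in shAhR-1, 0.662 to 1.03 CPM in shAhR-2 and 0.267 to 1.14 CPM in pLKO-GFP), a call that was lost without the first or the third shAhR-1 library and without the first or the second shAhR-2 library. In bulk RNA fewer cells of a type and less RNA per cell cannot be told apart, and the part of other cell types in the matrix genes was not tested.

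The remaining lists were lower or mixed, where 35.9% of all genes tested were higher in shAhR-1 and 36.5% lower. Of 24 p53 target genes 15 were lower and 6 higher (median -0.40). CDKN1A, the death receptor TNFRSF10B (log2 -1.73) and RRM2B (log2 -1.95) were lower in shAhR-1, and ZMAT3 (log2 1.67) and AEN (log2 0.82) were higher. Of 22 tested interferon response and antigen presentation genes 14 were lower and 1 higher. The higher gene was B2M, the light chain of class I antigen presentation (log2 0.18), with STAT2 (log2 -1.44) and HLA-C (log2 -1.15) among the lower. Of 14 tested genes of small RNA processing 5 were higher and 8 lower. DROSHA, the nuclease that cuts primary microRNA transcripts, had 182, 183 and 186 CPM in shAhR-1 and 49.8, 48.1 and 45.2 CPM in shAhR-2, against 184, 194 and 187 CPM in pLKO-GFP (log2 1.95). Its partner DGCR8 went the other way (log2 -1.01), AGO1 (log2 0.98) and AGO2 (log2 0.97) were higher in shAhR-1 and AGO4 (log2 -1.57) lower.

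**Figure D4:**
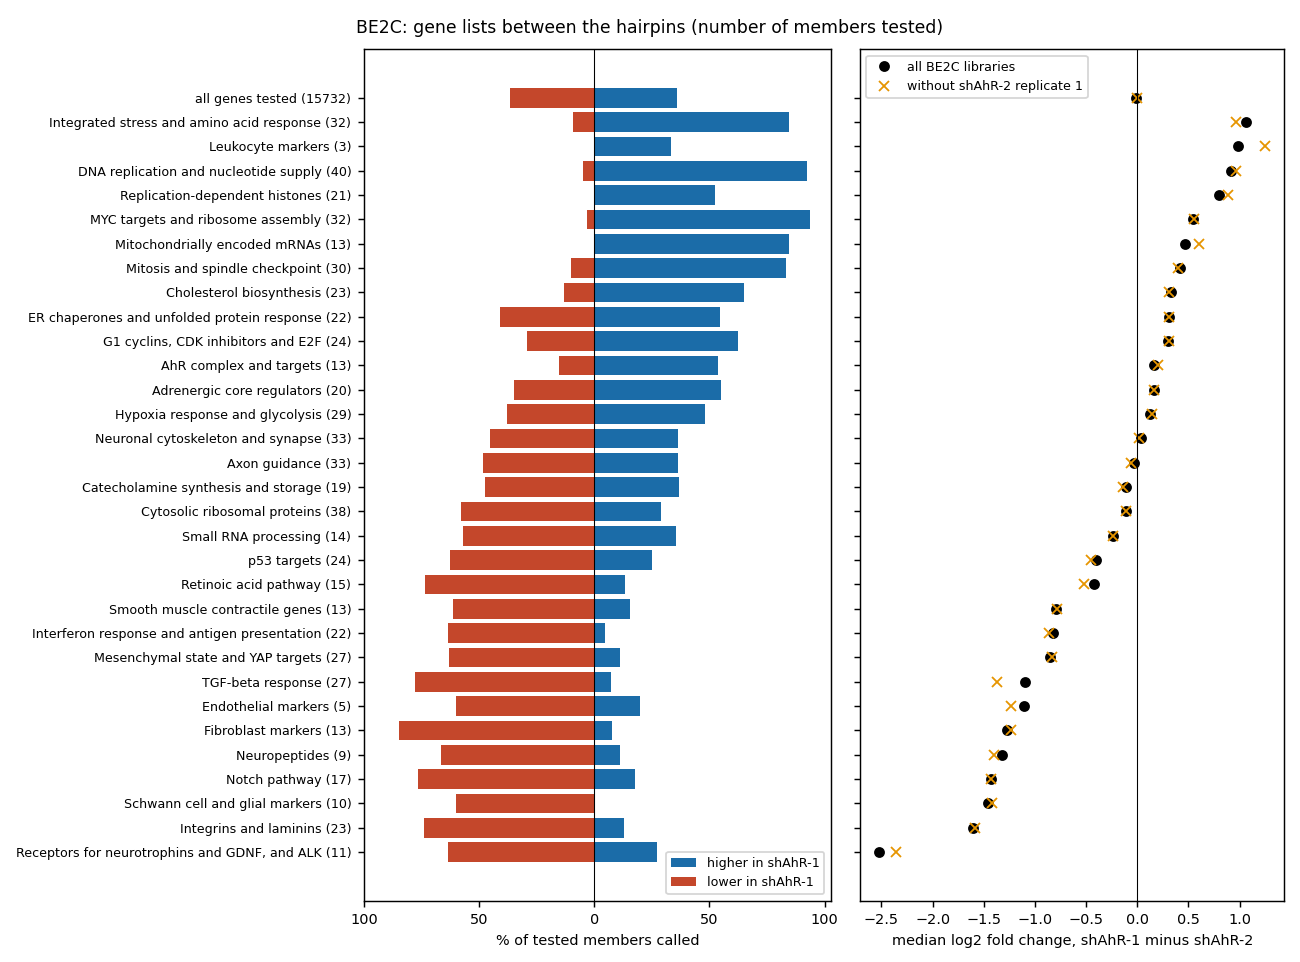
Left, share of the tested members of each list that were called higher (blue, to the right) or lower (red, to the left) in shAhR-1, in percent. Right, median log2 fold change of shAhR-1 minus shAhR-2 with all BE2C libraries (circles) and without the first shAhR-2 library (crosses). Over all genes tested 35.9% were higher and 36.5% lower; replication, stress response and MYC lists lean right, and neurotrophic receptors, integrins and TGF-beta response lean left, with crosses close to circles.

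Leaving out the first shAhR-2 library kept most calls. Of 16034 genes then tested 11104 (69.3%) were called, 34.4% higher and 34.8% lower. Of the 11396 genes called with all libraries 10844 were called again with the same sign, 552 were lost and none was reversed. The other calls made without that library were of genes not called, or not tested, with all libraries. The median absolute change in the log2 fold change was 0.032, but for 1173 genes it was over 0.2. Among the lost calls the largest absolute log2 fold change was 6.98. The cholesterol list then had 12 members higher in shAhR-1, against 15 with all libraries. For CRABP2 it was -7.63 without that library, for RET -2.85, for GPX1 3.73 and for HAND2 1.93.

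The same 2 hairpins were compared in Kelly, where none of the libraries is shared with BE2C. AHR in Kelly had 18, 11 and 22 counts in shAhR-1, 0, 4 and 0 counts in shAhR-2 and 4, 26 and 29 counts in pLKO-GFP, so the libraries labelled shAhR-1 overlapped with the control there. Of 15871 genes tested 12289 (77.4%) were called, 39.3% higher and 38.2% lower in shAhR-1. Of the 14680 genes tested in both lines, 7616 were called in both with the same sign, which is 70.3% of the calls of BE2C and 65.7% of those of Kelly, and 1595 were called with opposite signs (14.7% and 13.8%). Across these 14680 genes, which are not independent and share library preparation, the log2 fold changes of both lines had a Pearson correlation of 0.619 and a Spearman correlation of 0.630. Of the 20 genes with the largest differences in BE2C, all 20 were tested in Kelly and 19 were called with the same sign; SLC6A9 was not called (log2 0.20). In Kelly, shAhR-1 minus shAhR-2 was -4.27 for CRABP2, 3.58 for EPN1, 3.71 for GPX1 and 4.15 for RFC2. Of the gene lists only some recurred. All 40 replication genes were higher in shAhR-1 in Kelly and 16 of 25 integrins and laminins lower. The stress response list had 15 higher and 14 lower, MYC targets 12 and 15, TGF-beta response 10 and 10 and p53 targets 14 and 8. The test of the difference itself, the interaction of line and hairpin, called 9496 of 17136 genes tested (55.4%). MYCN was -0.38 in Kelly, against 0.70 in BE2C, and DBH was -1.06, against 1.12.

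**Figure D5:**
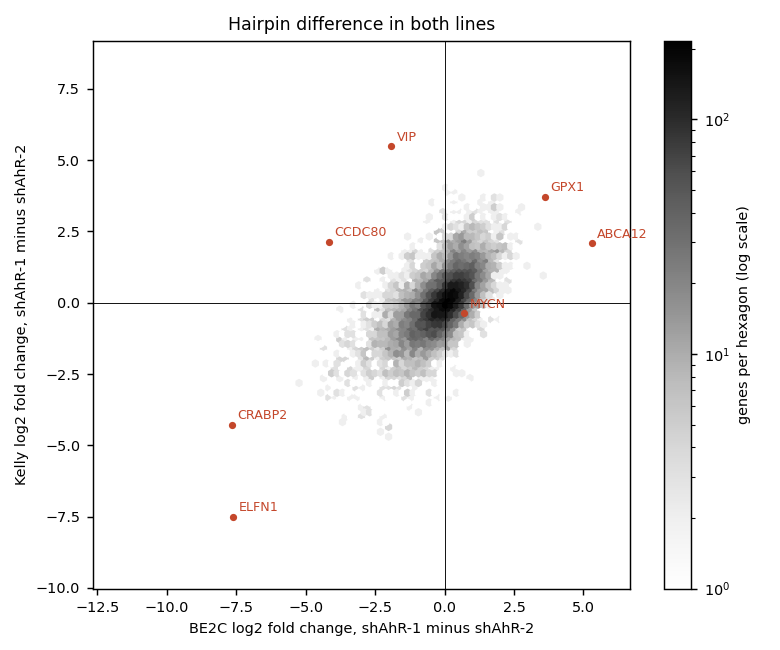
Log2 fold change of shAhR-1 minus shAhR-2 in BE2C (horizontal) and in Kelly (vertical) for the 14680 genes tested in both lines, as hexagons shaded by the number of genes on a log scale, with named genes as red points. The genes lie along a rising diagonal (Pearson correlation 0.619), with CRABP2 and ELFN1 low in both and CCDC80 and VIP on opposite sides in the 2 lines.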

How the data were processed

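The authors deposited raw counts per gene in 1 table per line, with 39368 genes each. Per the labels' protocols, the miRNeasy kit gave the RNA, and the HyperPrep kit with RiboErase was used for the libraries. CASAVA 1.8.2, STAR 2.7.9a and the build GRCh38.p7 are named in the submitters' processing notes. Not given in the sources used here: the counting tool, annotation, strand, read length and hairpins.

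The 9 BE2C libraries (39057512 to 44712058 counts) were fitted together with 1 term per group in edgeR 4.0.16 under R 4.3.3 (filterByExpr, TMM, glmQLFit, glmQLFTest), with Benjamini-Hochberg adjustment over all genes tested and a threshold of 0.05. This covers every adjusted p in the text. Each SE is the fold change divided by the root of F, and CPM values use TMM library sizes. Kelly was fitted the same way, and the interaction used all 18 libraries in 6 groups, as the BE2C difference less the Kelly difference. Pooled AHR counts have exact 95% intervals and a group floor of 3 counts.

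The 31 lists hold 744 entries. The members and lists were chosen with earlier results of these data known. Named genes were AHR, ARNT and MYCN, then called genes with a mean of at least 5 CPM over the hairpin libraries, no overlap between groups and the same call without the first shAhR-2 library: the 10 of each direction with the largest difference, and up to 3 of each direction per list. For the interaction they were the 4 of each sign with the largest value among genes called there. Of the limits above, only that on CPM over the BE2C hairpin libraries was used there. Other genes named (REST, the genes of the promoters shown, and ATF4, RET, GATA3, ISL1, TH, CYP1A1, CYP1B1, AHRR, NQO1, DCN and SOX10) were chosen after their values were seen. Locations are from GENCODE release 29, which placed 39226 of the genes, and promoters from RefSeq (GRCh38.p14), which matched 11768 of 15732 genes tested. Methods were tested on simulated data. Alternatives were RLE factors, no filter, a mean of at least 1 CPM, DESeq2 1.42.0, a replicate block, only the hairpin libraries, halved counts, no mitochondrial genes, and leaving out each library, of which leaving out the control libraries was added after seeing the data. A few list members are left unnamed here but stay in the counts.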

Additional observations from a re-analysis of the deposited data

Results flagged for a closer look

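The difference between the hairpins differed between the 2 lines for 9496 of 17136 genes tested (55.4%), by a test of the interaction in edgeR's quasi-likelihood fit, 4524 with a more positive shAhR-1 minus shAhR-2 value in BE2C and 4972 with a more negative one. The genes below were the largest of each sign, and each value is the BE2C difference less the Kelly difference on the log2 scale. CPM values given here use library sizes scaled over all 18 libraries of both lines, so they differ slightly from those of the BE2C fit.

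CCDC80, a secreted matrix protein, was well expressed in both lines. It had 4.94, 3.96 and 4.51 CPM in BE2C shAhR-1 against 80.4, 79.1 and 77.8 CPM in BE2C shAhR-2, and 25.4, 23.4 and 24.9 CPM in Kelly shAhR-1 against 5.48, 4.49 and 6.83 CPM in Kelly shAhR-2, an interaction of -6.27. The direction was opposite in the 2 lines and the groups did not overlap in either. In BE2C the hairpin groups did not overlap for 75.3% of all genes tested. VIP gave -7.38, with 23.2, 24.7 and 25.4 CPM in BE2C shAhR-1 against 73.9, 92.1 and 107.2 CPM in BE2C shAhR-2, but in Kelly it had 50, 63 and 59 counts in shAhR-1 against 2, 2 and 0 in shAhR-2. FZD1, a Wnt receptor, gave -7.12 and had 2, 0 and 0 counts in Kelly shAhR-2. TSPAN8 gave -6.58 and had 0 counts in all Kelly shAhR-2 libraries and 5, 4 and 13 counts in Kelly shAhR-1.

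CACNA1H, a calcium channel subunit, gave 7.06 and had 0 counts in all Kelly shAhR-1 libraries against 33, 32 and 43 in Kelly shAhR-2. SOHLH1 gave 5.57, with 2, 2 and 0 counts in Kelly shAhR-1 against 54, 62 and 71 in Kelly shAhR-2. EDIL3 gave 4.70 and H3-2 gave 4.36, where EDIL3 had 4, 0 and 2 counts in Kelly shAhR-2 and none in Kelly shAhR-1. The interaction values of genes at or near 0 in a Kelly group depend on the prior count and give no size.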

How the results depend on the processing

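Under the alternatives run, 622 of 631 recomputed values, over 39 main results, were kept. Counts were taken as kept within 1.5 times the value reported, and the AHR limit if it stayed on its side of no difference. The mitochondrial difference was taken as kept if it kept its sign and moved by less than the larger group SD, 2.64 percentage points. By that wide rule its rise without the first shAhR-2 library counts as kept. The count of called genes ranged from 10164, with a mean of at least 1 CPM, to 11626, without the second pLKO-GFP library, and calls higher in shAhR-1 made up 48.5% to 50.03% of the calls. The exceptions were histone members higher in shAhR-1 (5 with a mean of at least 1 CPM, against 11), the single leukocyte marker (0 with no filter, with DESeq2 and with halved counts, and 0 to 1 when single libraries were left out, the first shAhR-2 library among them), and the lower limit of the AHR rate ratio (0.734 with halved counts). The cause was not tested. Leaving out single libraries gave lower AHR limits of 1.24 to 2.85, and no value without the first shAhR-1 library, which holds all 8 counts.

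Deviations of same-numbered shAhR-1 and shAhR-2 libraries from their group means correlated at 0.009, -0.029 and 0.071, so the numbers were not taken as pairs; the replicate block gave 11290 calls, against 11396, and 9383 interaction calls, against 9496. Of 169 named genes 165 kept their call in all settings. ARNT was called with a mean of at least 1 CPM (log2 -0.12, adjusted p = 0.0212), and the EDIL3 interaction was lost without the first Kelly shAhR-2 library (3.76). Genes of low counts, AHR first, are limited by depth.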

Other observations

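By chromosome, genes of at least 10 CPM had a median log2 difference of shAhR-1 minus shAhR-2 of 0.26 on chromosome 19, where 478 of 1117 genes tested were higher in shAhR-1 and 295 lower. Over all genes tested 35.9% were higher and 36.5% lower. Most chromosomes had a positive median at that level, and the next highest was 0.21, on chromosome 22. The lowest median at that level was -0.040, on chromosome 18.

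Within shAhR-2 the first library differed from the other 2 by a median of 0.35 on the log2 scale over the 13 mitochondrially encoded mRNAs, against 0.0017 over all genes tested. The same median was 0.41 over the 10 tested Schwann cell and glial markers, 0.28 over 3 leukocyte markers and -0.24 over 9 neuropeptide genes. KCNQ1OT1, a long nuclear RNA, had 67.5 CPM in that library against 44.3 and 45.2 CPM in the other 2.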
